A study of Mus musculus with 12 samples.

Results

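Oxidative phosphorylation is carried out by 5 protein complexes of the inner mitochondrial membrane, and the genes described here encode their subunits. Members were the row names of the deposited table of wild-type libraries that begin with the gene symbols of complex I (Nduf followed by a, b, c, s or v and a number), complex II (Sdha to Sdhd), complex III (Uqcr), complex IV (Cox4 to Cox8) or complex V (Atp5), together with Cyc1 and Cycs, leaving out names that end in -ps. The rule gave 84 of 16516 gene symbols: 35 of complex I, 4 of complex II, 9 of complex III, cytochrome c, 11 common subunits of complex IV, 5 tissue isoforms or relatives of complex IV subunits, 17 of complex V and 2 gene copies, Ndufb4c and Cox7c-ps1. All 84 are nuclear genes. The rule also asked for names that begin with mt-, but 0 rows of the 4 tables carry such a name, and the mitochondrially encoded transcripts were not analysed here.

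The RNA came from cultured macrophages that were grown from mouse bone marrow, and was read by mRNA sequencing. The 12 libraries fall into 4 groups of 3: MGMT KO cells given DMXAA, wild-type cells given DMXAA, MGMT KO cells given the vehicle DMSO and wild-type cells given DMSO, each for 24 h. DMXAA is a small molecule that activates mouse STING, the adaptor of cytosolic DNA sensing, and the series text gives its dose as 10 mg/ml. MGMT is a DNA repair protein that takes alkyl groups off guanine. The wild-type genotype is labelled WTfl/fl, so it carries floxed alleles as far as the label says, and the labels used here name neither the Cre driver nor the age of the mice. Nothing in the labels says whether replicate libraries are from different mice, so a p-value here reflects only how these libraries vary, which may be technical.

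The complexes work in sequence. Complex I takes electrons from NADH and complex II from succinate, and both pass them to ubiquinone. Complex III hands them to the soluble carrier cytochrome c, and complex IV gives them to oxygen. Complexes I, III and IV pump protons, and complex V, the ATP synthase, lets the protons back through a rotating ring of c subunits to make ATP. Macrophages that have met bacterial products or interferon are known for a shift towards glycolysis, with succinate oxidation at complex II as a source of inflammatory signals, and cytochrome c released from mitochondria starts the caspase cascade of apoptosis.

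Libraries held 79482003 to 98135869 reads in listed genes, and the KO libraries under DMXAA, with at least 94083827, lay above all others. Mgmt had 33 to 61 reads in KO and 85 to 107 in WT under DMXAA, and 121 to 162 in KO and 243 to 263 in WT under DMSO, so it was lower in KO but present. Of 8 macrophage markers 8 were listed, and their summed level was 9396 to 9485 RPM (reads scaled to the library total) in KO under DMXAA, 11477 to 11719 in WT under DMXAA, 16736 to 17543 in KO under DMSO and 20594 to 21044 in WT under DMSO. Without Lyz2, the most abundant of them in WT, the sum was 7246 to 7375 in KO and 7567 to 7620 in WT under DMXAA, and 9999 to 10146 in KO and 9832 to 10142 in WT under DMSO. Lyz2 itself was at 2110 to 2150 in KO and 3911 to 4099 in WT under DMXAA, and at 6737 to 7398 in KO and 10452 to 11212 in WT under DMSO. The markers did not all move the same way. Fcgr1 was at 1148 to 1233 in KO and 1118 to 1169 in WT under DMXAA. Under DMSO Fcgr1 was at 106 to 112.8 in KO and 132.4 to 159.2 in WT. Cd68 was lower under DMXAA in KO and overlapped in WT, and the remaining markers were lower under DMXAA in both genotypes. The other 7 marker lists, each summed over its genes, stayed at or under 7.75 RPM in every library. Of these the dendritic cell list (4 of 4 markers listed) moved with DMXAA, at 3.8 to 4.88 in KO and 3.82 to 4.25 in WT under DMXAA against 0.1 to 0.214 in KO and 0.109 to 0.352 in WT under DMSO. The neutrophil list (8 of 9 listed, Elane at 0) was lower in KO, at 0.774 to 0.834 against 2.72 to 3.09 in WT under DMXAA and 0.755 to 1.28 against 5.49 to 7.75 in WT under DMSO. The stromal list (5 of 5 listed) reached 5.39 in KO under DMSO, where Col1a1 had 10, 199 and 200 reads and Col1a2 20, 221 and 152 reads in the 3 libraries. Cd3d and Cd8a of the T and NK cell list, Ighm of the B cell list and Mcpt8, Ms4a2 and Fcer1a of the mast cell list were at 0 or not listed throughout. The part of these lists in the differences below was not tested, and in bulk samples fewer cells of a type and less RNA per cell cannot be told apart.

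Levels between genes were compared as RPKM, reads scaled by exon length and library total. Exon lengths were the bases covered by all annotated exons of a gene in GENCODE vM21, over all its transcripts. The levels, medians and ranges below therefore depend on the annotation as well as on the reads. In WT under DMSO, Cox6c and Cox6a1 had mean normalized counts of 4869 and 4966. With lengths of 3567 and 702 bases they stood at 17.4 and 90 RPKM. The common subunits of complex IV and the subunits of complex V were the most abundant: in WT under DMSO the median was 54.7 over the 11 of complex IV, 51.4 over the 17 of complex V, 37.2 over the 4 of complex II, 31.3 over the 9 of complex III and 27.5 over the 35 of complex I. The order was the same in KO under DMSO, while under DMXAA the medians of complex III, 23.5 in KO and 24.2 in WT, lay below those of complex I, 25.4 in KO and 26.9 in WT. The range within a complex was wider than the distance between medians. Complex IV ran from 17.4 for Cox6c to 397.8 for Cox6b1 in WT under DMSO, and complex I from 4.15 for Ndufb7 to 65.6 for Ndufa1. Cox4i1, the common isoform of a regulatory subunit, was next to Cox6b1 in complex IV, at 223.3 ± 5.84 in KO and 235.9 ± 7.97 in WT under DMXAA, and 353.8 ± 24.1 in KO and 327.7 ± 10.8 in WT under DMSO (SD, n = 3 each). Cytochrome c was below every complex median both under DMSO and under DMXAA. Under DMSO it stood at 7.62 ± 0.13 in KO and 9.52 ± 0.48 in WT. Under DMXAA it stood at 18 ± 0.13 in KO and 22.1 ± 1.15 in WT.

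**Figure D1:**
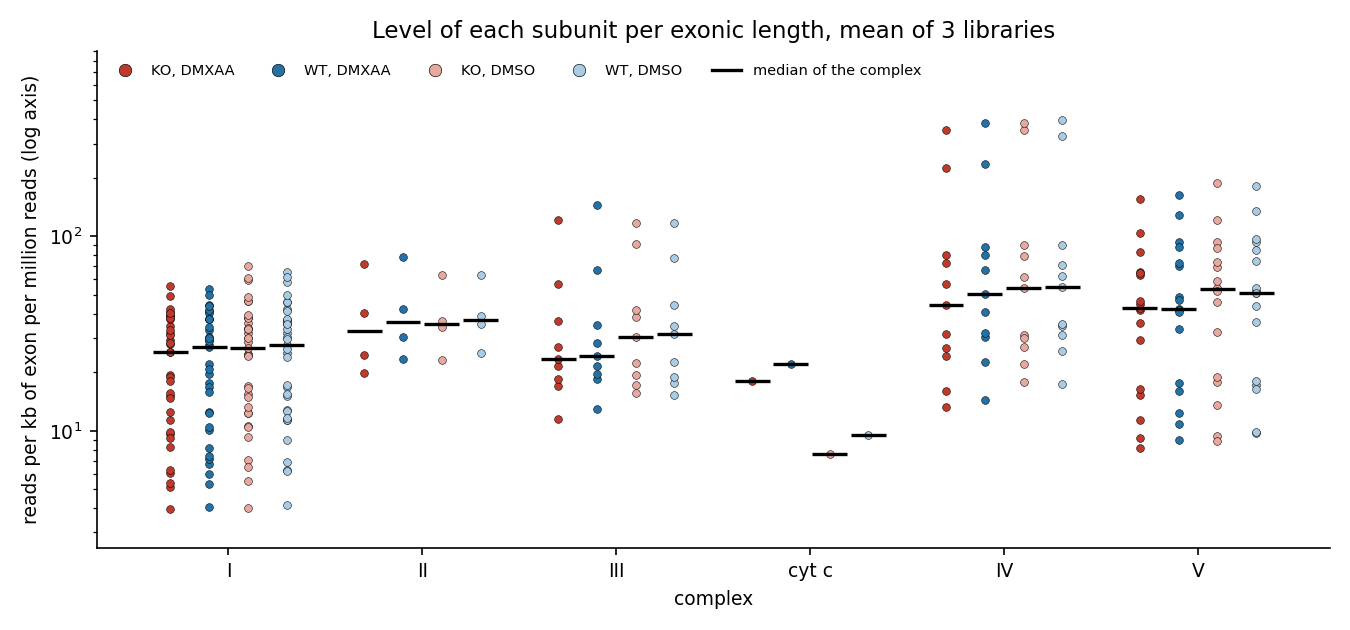
Level of each subunit in RPKM (log axis), by complex; each point is a gene's mean over 3 libraries, the black line is the median of the complex, and the 4 columns are KO and WT under DMXAA and KO and WT under DMSO. The single gene of cytochrome c stands at 18 and 22.1 under DMXAA, against 7.62 and 9.52 under DMSO, while the median of complex I stays between 25.4 and 27.5 in the 4 groups.

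The response to DMXAA was tested within each genotype with limma on log2 of the deposited normalized count plus 1, for genes with a mean of at least 10 over the 6 libraries, and a gene counted as called where its p, adjusted by Benjamini and Hochberg's method, was below 0.05. Of 84 members 83 passed the filter in every comparison; Cox4i2, the alternative isoform of Cox4i1, had 4 reads in all libraries together and was not tested. In KO macrophages 49 of the 83 members were higher under DMXAA and 10 lower, where 33.7% of all tested genes were called higher and 32.9% lower. In WT macrophages 43 were higher and 8 lower, beside 31.7% and 31.1% of all tested genes. The median log2 change of the members was 0.17 in KO and 0.20 in WT, against a median of -0.003 over all tested genes in each genotype, and 64 of the 83 members lay above that median in KO and also in WT. A member that was called thus usually moved by a small step, and the direction of a small step depends on the scaling.

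Making library totals equal moves the median log2 change of all genes to -0.39 in KO and -0.32 in WT. Making upper quartiles equal moves it to -0.15 and -0.13. With equal totals 10 of the 83 members counted as higher and 50 as lower in KO, beside 15.7% and 61.6% of all tested genes, so the share lower was near the background. In WT 10 were higher and 36 lower, beside 16.1% and 55.6% of all tested genes. With equal upper quartiles 25 were higher and 17 lower in KO (25.1% and 43.1% of all tested genes), and 26 higher and 18 lower in WT (24% and 40.2%). The counts with equal totals given below for single complexes and lists are to be read against these shares. In the same terms, the 84 members took 0.537, 0.536 and 0.526% of reads in the KO libraries under DMXAA against 0.64, 0.622 and 0.658% in the KO libraries under DMSO. They took 0.581, 0.587 and 0.58% in WT under DMXAA against 0.664, 0.641 and 0.629% in WT under DMSO. The groups did not overlap in either genotype, and the share was lower under DMXAA in both. Changes are therefore given with the deposited scaling, relative to the median gene, and members called in one direction under all 3 scalings are named as such. In KO 10 members were higher under all 3 (background 15.7% of tested genes) and 10 lower (32.9%). In WT 10 were higher (16.1%) and 8 lower (31.1%). The other scalings subtract a common step from every gene. Every gene called lower with the deposited scaling, 4180 in KO and 3960 in WT, stayed lower under all 3. They therefore add no check for members called lower, and for members called higher equal totals alone set the count.

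The members higher in both genotypes under all 3 scalings were Cycs, Cox5a and the muscle isoform Cox6a2 of complex IV, Sdhb, the iron-sulphur subunit of complex II, Ndufs3, a core subunit of complex I, Uqcrq, a small subunit of complex III, and Atp5o, the peripheral stalk protein OSCP of complex V. Those lower in both genotypes were Cox4i1, Ndufa4, Cox7a1 and Cox7a2l of complex IV or related to it, Ndufs1 of complex I and Uqcr11 of complex III. Each of complexes I, III and IV held members of both kinds. In each genotype the share of members called under all 3 scalings was below that of all tested genes, in either direction. The share of all tested genes called alike in both genotypes is not given here, so these names only describe the members.

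**Figure D2:**
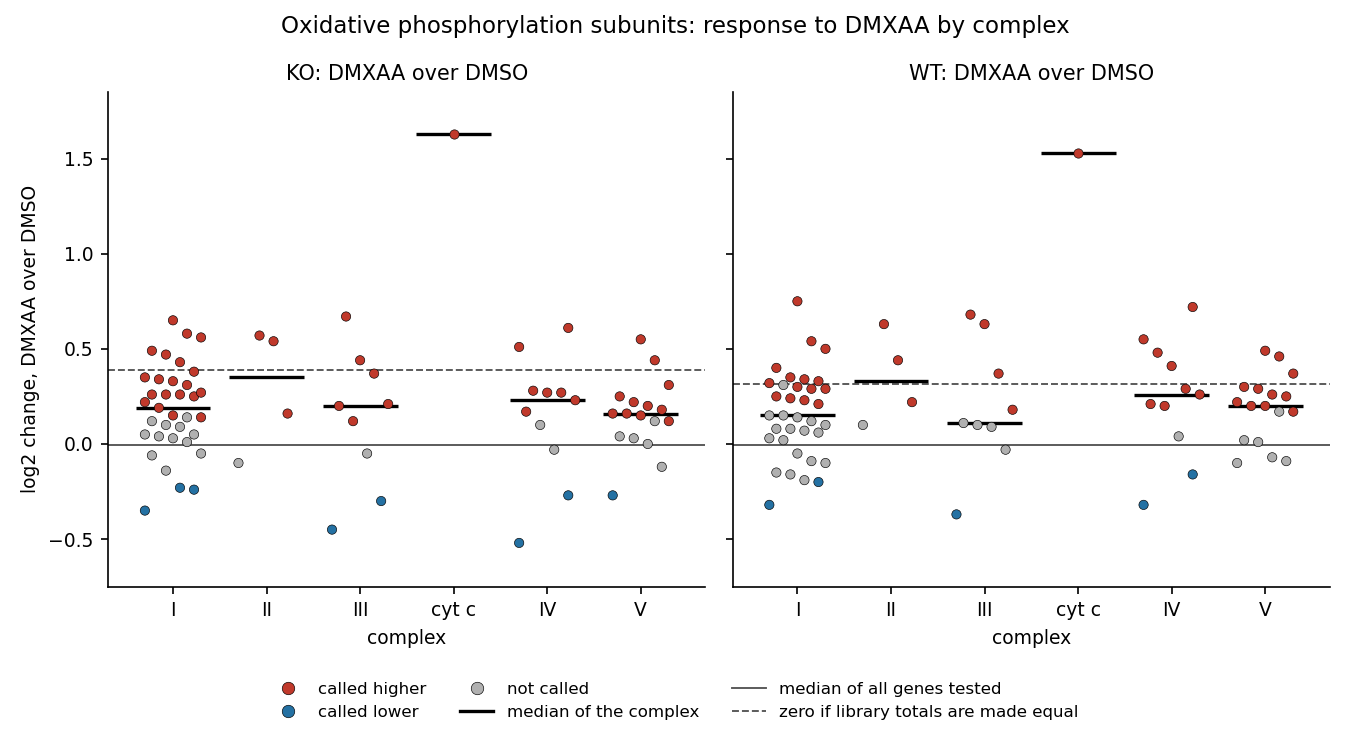
Log2 change of each subunit under DMXAA over DMSO, by complex, in KO (left) and WT (right), with the deposited scaling; points are genes coloured by call, black lines are medians of the complexes, the thin line is the median of all tested genes and the dashed line is where zero lies if library totals are made equal (0.39 above that median in KO and 0.32 in WT). Most subunits sit between the thin and dashed lines, so that most calls of a higher level turn into lower or uncalled ones with equal totals. Cytochrome c stands above the subunits of the 5 complexes drawn, without the tissue isoforms or relatives of complex IV subunits, in both panels.

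Cycs, which encodes somatic cytochrome c (GRCm38 chromosome 6, 50562563 to 50566538, minus strand), had 6283, 6444 and 6438 normalized counts in KO under DMXAA against 2023, 2034 and 2125 in KO under DMSO. Cycs in WT had 7423, 7687 and 6947 under DMXAA against 2709, 2495 and 2442 under DMSO. Every DMXAA library was far above every DMSO library of its genotype. The log2 change was 1.63 (SE 0.049, adjusted p = 6.64e-10, a 3.1-fold rise) in KO and 1.53 (SE 0.062, adjusted p = 1.33e-08, 2.88-fold) in WT. With equal totals it was 1.24 and 1.21. It was the largest change among the 77 members outside the gene copies and the tissue isoforms or relatives of complex IV subunits. The next largest in WT was 0.75 for Ndufs3.

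Subunit genes are known to share promoter motifs for the factors NRF1 (GCGCATGCG), the ETS family with GABP (CCGGAAG) and YY1 (AAGATGGCG). RefSeq promoter windows of GRCm38.p6, from 250 bases before the annotated start to 50 after it, were found for 67 members by symbol, and both strands were searched for these letters; an occurrence of one motif was counted whether or not it overlapped another. The NRF1 letters were in 9 of the 67 (13.4%, against 1.95% of all 27025 promoters and 4.14% of those of genes tested in WT), the ETS letters in 17 (25.4%, against 9.93% and 20.5%) and the YY1 letters in 7 (10.4%, against 1.64% and 3.6%). Both the NRF1 and the ETS letters were in 4, and 39 held none of the 3 motifs. The letters GAAANNGAA, the core of interferon-response elements, were in 7 members (10.4%), a share near the 9.76% of all promoters and the 8.85% of tested genes. A match is a run of letters and not a binding site.

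The 250 bases before the start are shown for 3 members: Cycs, which had the largest change outside the tissue isoforms and copies, Ndufs3, which had the largest change in complex I, and Uqcrh, the member whose response differed between genotypes. Each runs 5′ to 3′ on the gene's own minus strand, and capitals mark the motif letters named above. In Cycs (chr6:50566570-50566819) they mark the NRF1 letters, read on the opposite strand, whose outer end lies 61 bases before the start. In Ndufs3 (chr2:90904722-90904971) they mark the interferon letters on the opposite strand at 203 bases and the ETS letters at 27 bases. In Uqcrh (chr4:116075071-116075320) they mark the ETS letters on the opposite strand at 10 bases.
Cycs: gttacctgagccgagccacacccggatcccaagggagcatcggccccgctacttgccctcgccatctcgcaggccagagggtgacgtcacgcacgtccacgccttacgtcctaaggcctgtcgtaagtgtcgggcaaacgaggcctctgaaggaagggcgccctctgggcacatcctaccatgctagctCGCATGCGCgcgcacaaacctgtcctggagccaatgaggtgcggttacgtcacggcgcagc
Ndufs3: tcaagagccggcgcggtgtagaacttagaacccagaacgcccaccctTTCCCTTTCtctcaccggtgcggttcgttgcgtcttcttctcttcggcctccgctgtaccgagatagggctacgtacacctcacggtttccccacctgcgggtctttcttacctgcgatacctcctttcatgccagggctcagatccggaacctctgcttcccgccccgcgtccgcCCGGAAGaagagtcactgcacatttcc
Uqcrh: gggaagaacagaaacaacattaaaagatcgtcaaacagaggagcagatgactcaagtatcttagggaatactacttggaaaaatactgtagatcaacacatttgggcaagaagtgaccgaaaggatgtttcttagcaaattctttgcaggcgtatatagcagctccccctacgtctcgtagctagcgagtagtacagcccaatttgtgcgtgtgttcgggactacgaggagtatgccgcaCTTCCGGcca

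In complex I, which oxidises NADH, 20 of 35 subunits were called higher and 3 lower under DMXAA in KO, but 3 higher and 18 lower with equal totals, where 61.6% of all tested genes were lower. In WT 15 were higher and 2 lower, but 1 higher and 16 lower with equal totals. The 7 core subunits, which carry the redox centres, were split. Ndufs3 had 4063, 4339 and 3841 normalized counts in KO under DMXAA against 2516, 2381 and 2912 under DMSO. Ndufs3 in WT had 4450, 4203 and 4610 under DMXAA against 2951, 2494 and 2482 under DMSO, without overlap. It rose by log2 0.65 (SE 0.079) in KO and 0.75 (SE 0.076) in WT, with adjusted p = 3.76e-05 and 1.49e-05 in limma. Ndufs7, which holds the last iron-sulphur cluster before ubiquinone, was the only other core subunit called higher, at 0.47 in KO and 0.32 in WT, but with equal totals at 0.09 and 0.01 it was not called.

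Ndufs1, the largest core subunit (GRCm38 chromosome 1, 63143596 to 63176833), went the other way. It had 13040, 13019 and 13575 normalized counts in KO under DMXAA against 16203, 15157 and 15131 under DMSO. Ndufs1 in WT had 13356, 13407 and 13041 under DMXAA against 15170, 15015 and 15525 under DMSO. The groups did not overlap, and it fell, with a log2 change of -0.23 (adjusted p = 9.99e-04) in KO and -0.20 (adjusted p = 0.00198) in WT. The flavin-binding core subunit Ndufv1 was at 0.05 and 0.06 and not called in either genotype with the deposited scaling. Of the 28 accessory subunits 18 were higher and 2 lower in KO and 13 higher and 1 lower in WT, which became 2 higher and 13 lower in KO and 11 lower in WT with equal totals.

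Among the accessory subunits the highest was Ndufs4 of the NADH-oxidising arm, a gene mutated in human Leigh syndrome, with a change of 0.58 (adjusted p = 2.18e-05) in KO and 0.54 (adjusted p = 8.71e-04) in WT. With equal totals it was called in KO (0.19) but not in WT (0.22). The lowest in KO was Ndufb11 at -0.35 (adjusted p = 0.00306), with 4101, 3761 and 4113 normalized counts under DMXAA against 4871, 4649 and 5801 under DMSO. The lowest in WT was Ndufv3 at -0.32 (adjusted p = 0.00181), with 2152, 2456 and 2368 under DMXAA against 3033, 2891 and 2805 under DMSO. Ndufs5 cannot be told apart from its copy Ndufs5-ps in these counts, because the reads of the copy were 1.012 to 1.032 times those of Ndufs5 in all 12 libraries.

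In complex II, which oxidises succinate, Sdhb, Sdhc and Sdhd were called higher in both genotypes by limma and Sdha was not called. In KO edgeR and DESeq2 called Sdha lower, and edgeR did not call Sdhc. With equal totals Sdhc was lower in KO (-0.23) and not called in WT (-0.10). Sdhb had 17098, 17053 and 16000 normalized counts in KO under DMXAA against 12032, 10545 and 11275 under DMSO. Sdhb in WT had 17160, 17720 and 16917 under DMXAA against 11836, 11247 and 10337 under DMSO. It rose by log2 0.57 (SE 0.055, adjusted p = 6.33e-06) in KO and 0.63 (SE 0.056, adjusted p = 4.79e-06) in WT, and by 0.18 and 0.32 with equal totals. The membrane anchor Sdhd rose by 0.54 in KO and 0.44 in WT, and was called with equal totals in KO (0.15) but not in WT (0.12). Sdha, the catalytic flavoprotein subunit, had 10438, 10427 and 10510 normalized counts in KO under DMXAA against 11663, 10655 and 11419 under DMSO. Sdha in WT had 11948, 12518 and 12420 under DMXAA against 11130, 11522 and 11816 under DMSO. Its changes of -0.10 (adjusted p = 0.0687) in KO and 0.10 (adjusted p = 0.0863) in WT did not pass the test in limma, and both were called lower with equal totals, at -0.49 and -0.22. Whether Sdha and Sdhb differed in their response was not tested.

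In complex III, which passes electrons to cytochrome c, 6 of 9 subunits were higher and 2 lower in KO, but 1 higher and 6 lower with equal totals. In WT 4 were higher and 1 lower, but 2 higher and 5 lower with equal totals. Uqcrq had 4884, 4232 and 4328 normalized counts in KO under DMXAA against 3021, 2504 and 2936 under DMSO. Uqcrq in WT had 4166, 4526 and 4357 under DMXAA against 2709, 2830 and 2584 under DMSO. It rose by log2 0.67 (adjusted p = 3.84e-05) in KO and 0.68 (adjusted p = 4.14e-06) in WT without overlap. Uqcr11, another small subunit, had 1478, 1484 and 1339 in KO under DMXAA against 2228, 1741 and 1938 under DMSO. Uqcr11 in WT had 1265, 1350 and 1452 under DMXAA against 1732, 1760 and 1756 under DMSO. It fell, with a log2 change of -0.45 (adjusted p = 0.00133) in KO and -0.37 (adjusted p = 9.76e-04) in WT. Cyc1, the cytochrome c1 that meets cytochrome c, changed by 0.37 in both genotypes and was called, but with equal totals its change was -0.01 in KO and 0.05 in WT and was not.

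In complex IV, cytochrome c oxidase, 7 of 11 common subunits were higher and 2 lower in KO, but 1 higher and 7 lower with equal totals. In WT 8 were higher and 2 lower, but 3 higher and 3 lower with equal totals. Cox5a, a nuclear subunit on the matrix side, had 6865, 6835 and 6930 normalized counts in KO under DMXAA against 4409, 4178 and 4977 under DMSO. Cox5a in WT had 8019, 8306 and 8946 under DMXAA against 5069, 5301 and 5008 under DMSO. It rose by log2 0.61 (SE 0.064, adjusted p = 1.21e-05) in KO and 0.72 (SE 0.055, adjusted p = 1.92e-06) in WT, and was still called higher with equal totals, at 0.22 and 0.40. The zinc-binding subunit Cox5b was close behind at 0.51 in KO and 0.55 in WT, but with equal totals it was called in WT (0.23) and not in KO (0.12).

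Ndufa4, first assigned to complex I and now known as a subunit of complex IV, had 2313, 2191 and 2394 normalized counts in KO under DMXAA against 3205, 3142 and 3535 under DMSO. Ndufa4 in WT had 2820, 3249 and 3082 under DMXAA against 3575, 3875 and 3994 under DMSO. All DMXAA libraries were below all DMSO libraries of the same genotype. It fell, with a log2 change of -0.52 (SE 0.064, adjusted p = 4.15e-05) in KO and -0.32 (SE 0.069, adjusted p = 0.00236) in WT. Cox4i1 fell by a smaller step, with a log2 change of -0.27 (adjusted p = 0.00149) in KO and -0.16 (adjusted p = 0.0137) in WT, where the call was lost without WT DMXAA replicate 2. It had 36762, 35903 and 35380 in KO under DMXAA against 43218, 40242 and 47380 under DMSO. Cox4i1 in WT had 35394, 34829 and 37204 under DMXAA against 41713, 38656 and 39433 under DMSO.

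**Figure D3:**
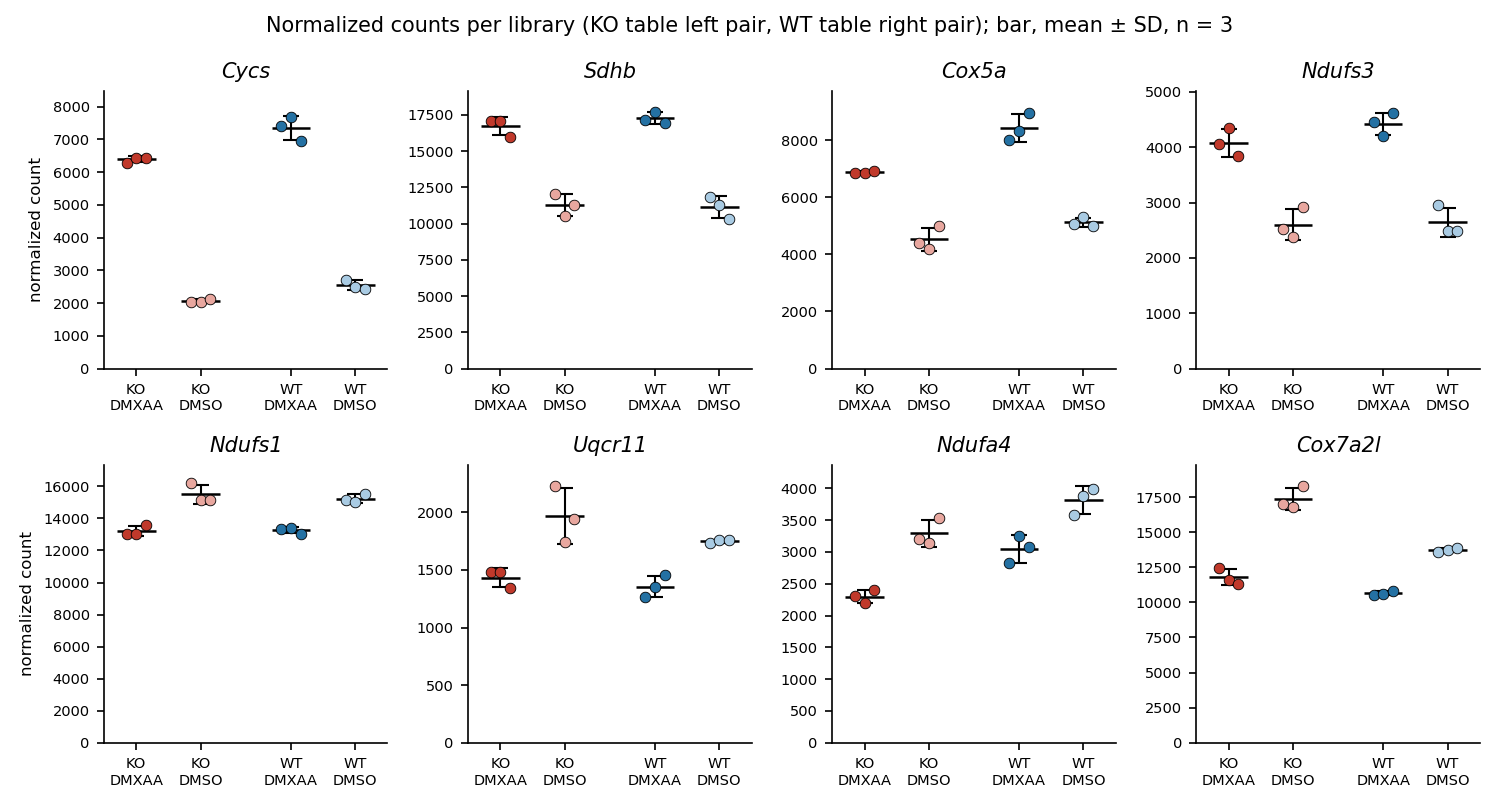
Normalized counts of 8 members in each library, for KO under DMXAA and DMSO (left pair) and WT under DMXAA and DMSO (right pair); points are libraries and bars are mean ± SD of 3. The KO and WT pairs come from tables that were normalized separately. Cycs, Sdhb, Cox5a and Ndufs3 are higher under DMXAA and Ndufs1, Uqcr11, Ndufa4 and Cox7a2l lower, with no overlap between the groups of a pair.

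Of the 5 tissue isoforms or relatives of complex IV subunits, Cox7a2l was the only one at a high level. It is a relative of subunit 7A and encodes the supercomplex factor SCAF1 that joins complexes III and IV. It had 12418, 11568 and 11338 normalized counts in KO under DMXAA against 17039, 16799 and 18290 under DMSO. Cox7a2l in WT had 10552, 10596 and 10794 under DMXAA against 13555, 13719 and 13848 under DMSO. It fell, with a log2 change of -0.56 (SE 0.051, adjusted p = 3.98e-06) in KO and -0.36 (SE 0.041, adjusted p = 3.17e-05) in WT. Its relative Cox7a2, the common isoform of subunit 7A, was called higher at 0.27 in KO and 0.41 in WT, but with equal totals it was at -0.12 and 0.09 and not called.

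The muscle and testis isoforms were near the lower limit of these libraries. Cox6a2, the heart and muscle isoform of subunit 6A, had 125, 125 and 187 reads in KO under DMXAA against 45, 18 and 40 under DMSO. Cox6a2 in WT had 29, 54 and 55 under DMXAA against 18, 7 and 6 under DMSO. Each DMXAA group lay above its DMSO group, and the log2 change was 2.36 (SE 0.362, adjusted p = 2.03e-04) in KO and 2.45 (SE 0.447, adjusted p = 8.53e-04) in WT. Cox6a2 was at 2.24 ± 0.594 RPKM in KO under DMXAA, against 80.3 ± 0.962 for its common partner Cox6a1 in the same libraries.

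Cox7a1, the muscle isoform of subunit 7A, had 22, 25 and 20 reads in KO under DMXAA against 103, 109 and 56 under DMSO. Cox7a1 in WT had 53, 36 and 18 under DMXAA against 123, 103 and 57 under DMSO. It fell, with a log2 change of -1.66 (adjusted p = 3.07e-04) in KO. In WT the libraries overlapped in normalized counts, and the change was -1.12 (adjusted p = 0.0254). That call was lost without WT DMXAA replicate 2 or 3 or WT DMSO replicate 1 or 2, and the values over all 6 leave-outs ran from -1.47 without WT DMXAA replicate 1 to -0.73 without WT DMXAA replicate 3. Cox6b2, the testis isoform of subunit 6B, had 51, 40 and 18 reads in KO under DMXAA against 68, 86 and 58 under DMSO. Cox6b2 in WT had 0, 0 and 17 under DMXAA against 64, 42 and 46 under DMSO. Its change in WT was -4.05 (adjusted p = 0.00665) with limma at a pseudocount of 1, -2.54 at a pseudocount of 5, -2.81 with edgeR (adjusted p = 0.0143) and -2.79 with DESeq2, which did not call it (adjusted p = 0.222). The 2 gene copies, Ndufb4c with 156 to 280 reads and Cox7c-ps1 with 11 to 19, were not called in any comparison with the deposited scaling.

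In complex V, 11 of 17 subunits were higher and 1 lower in KO, but 1 higher and 14 lower with equal totals. In WT 11 were higher, but 1 higher and 7 lower with equal totals. Atp5o had 7204, 7656 and 7247 normalized counts in KO under DMXAA against 5115, 4987 and 5035 under DMSO. Atp5o in WT had 8136, 8507 and 7118 under DMXAA against 5887, 5618 and 5337 under DMSO. It rose by log2 0.55 (SE 0.046, adjusted p = 2.23e-06) in KO and 0.49 (SE 0.071, adjusted p = 1.77e-04) in WT, and by 0.16 and 0.18 with equal totals. The catalytic beta subunit Atp5b was at 0.25 in KO and 0.30 in WT and called higher, but with equal totals it was lower in KO (-0.14) and not called in WT (-0.02). The alpha subunit Atp5a1, which alternates with beta in the same ring, was at -0.12 in KO and -0.09 in WT and not called by limma. edgeR and DESeq2 called it lower in KO, and with equal totals limma called it lower in both genotypes (-0.51 and -0.41).

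Subunit c of the rotor is encoded by 3 genes whose mature proteins are the same. Their lengths over all annotated exons were 4912 bases for Atp5g1, 1675 for Atp5g2 and 2181 for Atp5g3, and the size of each share depends on these lengths. Per exon length Atp5g3 gave 71.9% ± 1.02 of the reads of the 3 genes in KO under DMXAA against 67.1% ± 1.08 in KO under DMSO. It gave 73.7% ± 1.12 in WT under DMXAA against 69.1% ± 0.333 in WT under DMSO (SD, n = 3 each). Atp5g2 gave 20.2% ± 0.399 in KO under DMXAA against 25.4% ± 1.3 in KO under DMSO, and 19.2% ± 0.885 in WT under DMXAA against 22.5% ± 0.337 in WT under DMSO, and its groups did not overlap. Atp5g1 gave 7.09 to 8.24% in KO under DMXAA and 7.28 to 7.71% in KO under DMSO, which overlap, and 6.23 to 7.53% in WT under DMXAA and 8.28 to 8.6% in WT under DMSO, which do not. With the deposited scaling Atp5g3 was higher by 0.16 in KO and 0.25 in WT (with equal totals lower in KO at -0.23 and not called in WT at -0.06), and Atp5g2 was lower in KO at -0.27 and not called in WT at -0.07.

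KO and WT were then compared under DMXAA. Of 83 members 14 were lower in KO and 4 higher, where 10.8% of all tested genes were called lower and 10.7% higher. The members' median log2 difference was -0.07, against -0.002 over all genes. Here the scaling moves the median of all genes by 0.05 or less, and with equal totals 23 members were lower and 4 higher, beside 14.4% and 7.51% of all tested genes. Those lower were Cycs, Sdha and Sdhc of complex II, Uqcr10 and Uqcrh of complex III, Cox5a, Cox5b, Cox7b, Cox7c and Ndufa4 of complex IV, and Atp5b, Atp5g2, Atp5g3 and Atp5k of complex V. In complex I no subunit was called lower by limma with the deposited scaling or by edgeR, 5 of 35 were lower at an unadjusted p below 0.05 in limma, and DESeq2 called 1, Ndufa3. With equal totals limma called 4 lower, and with equal upper quartiles 1. Whether complex I differed in this from the other complexes was not tested.

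Ndufa4 had the largest difference of the common subunits, with 2073, 1958 and 2141 normalized counts in KO under DMXAA against 2607, 2986 and 2841 in WT under DMXAA, a log2 difference of -0.45 (SE 0.064, adjusted p = 6.68e-04). Atp5k, subunit e at the interface of ATP synthase dimers, had 3550, 3947 and 3665 in KO against 5361, 4850 and 4508 in WT, a difference of -0.40 (SE 0.068, adjusted p = 0.00194). Cox5a had 6153, 6110 and 6196 in KO against 7414, 7635 and 8245 in WT, a difference of -0.33 (SE 0.048, adjusted p = 7.02e-04). In each of the 3 genes every KO library was below every WT library.

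Sdha had 9356, 9320 and 9397 normalized counts in KO against 11047, 11506 and 11447 in WT, a log2 difference of -0.28 (SE 0.038, adjusted p = 5.36e-04). Sdhb, at 15326, 15242 and 14306 in KO against 15866, 16287 and 15591 in WT, differed by -0.09 (adjusted p = 0.154) and was not called. Cycs had 5632, 5760 and 5756 in KO against 6863, 7065 and 6402 in WT, a difference of -0.24 (SE 0.048, adjusted p = 0.00443). Atp5g3 was lower, at -0.27 (adjusted p = 5.40e-04), as was the catalytic Atp5b, at -0.17 (adjusted p = 0.00595). Both genes had all KO libraries below all WT libraries. The call of Atp5g2 (-0.15, adjusted p = 0.0436) was lost in 5 of 6 leave-outs, all but that of WT DMXAA replicate 3. The lowest of complex III was Uqcr10 at -0.21 (adjusted p = 0.0212), a call lost without KO DMXAA replicate 3, WT DMXAA replicate 2 or WT DMXAA replicate 3, and that of complex I was Ndufa3 at -0.22, which was not called (adjusted p = 0.0699). At the other end, Sdhd (-0.02), Uqcrb (0.11), Cox4i1 (-0.03) and Atp5h (0.09), the highest of complexes II, III, IV and V, were not called.

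The 4 members higher in KO under DMXAA were Ndufv3 and Ndufs8 of complex I and the isoforms Cox6a2 and Cox6b2. Ndufv3, an accessory subunit of the NADH-oxidising arm, had 2757, 2802 and 2605 normalized counts in KO against 1989, 2257 and 2182 in WT, a log2 difference of 0.35 (SE 0.062, adjusted p = 0.00262). Ndufs8, a core iron-sulphur subunit, had 4227, 3962 and 3649 in KO against 3305, 3306 and 3450 in WT, a difference of 0.23 (SE 0.059, adjusted p = 0.0179). Cox6a2 was higher by 1.59 (SE 0.276, adjusted p = 0.00221). Cox6b2, with 51, 40 and 18 reads in KO against 0, 0 and 17 in WT, differed by 3.64 (adjusted p = 0.0301) in limma at a pseudocount of 1, but was not called by edgeR (2.55, adjusted p = 0.073) or DESeq2 (2.54, adjusted p = 0.439), and the limma call was lost without KO DMXAA replicate 1 or 2 or WT DMXAA replicate 1 or 2. The count of members higher fell to 2 without KO DMXAA replicate 1 and to 2 without WT DMXAA replicate 1.

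**Figure D4:**
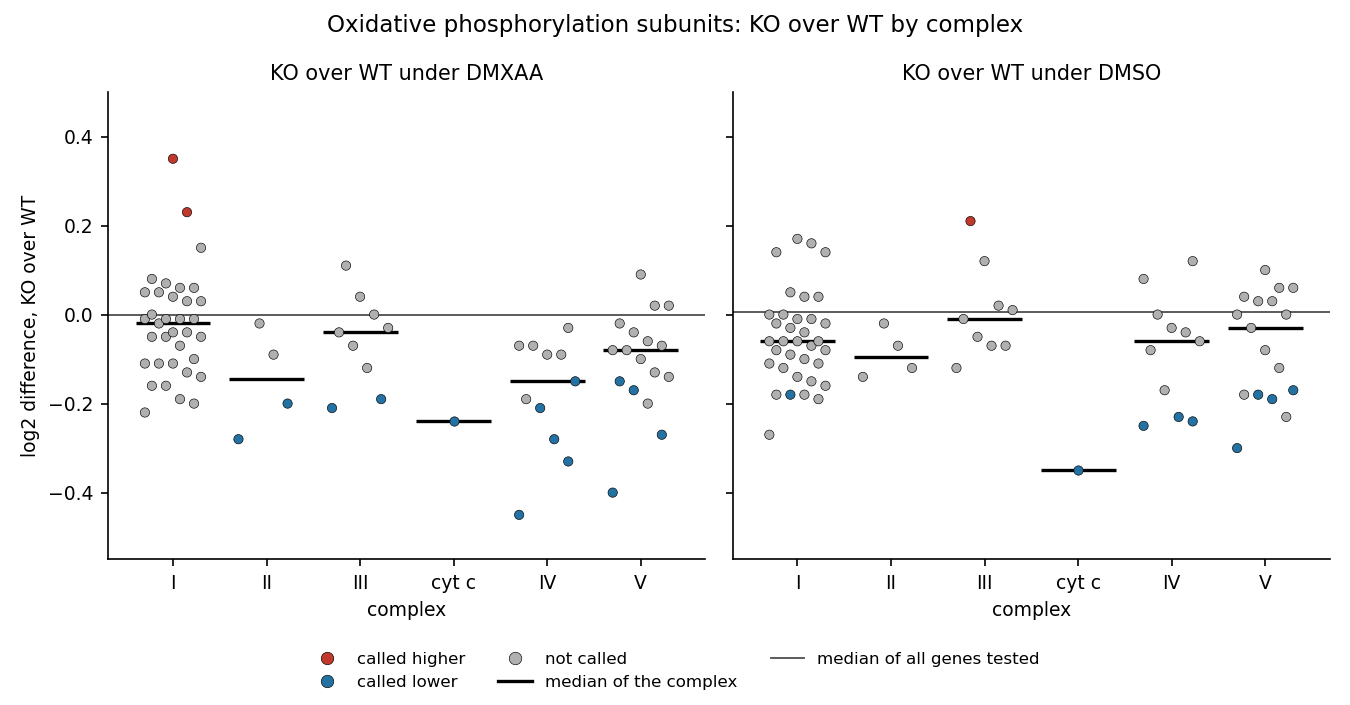
Log2 difference of each subunit, KO over WT, by complex, under DMXAA (left) and DMSO (right), with the deposited scaling; points are genes coloured by call, black lines are medians of the complexes and the thin line is the median of all tested genes. Under DMXAA the median of complex IV is at -0.15 and that of complex I at -0.02, and cytochrome c is at -0.24 under DMXAA and -0.35 under DMSO.

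Under DMSO 9 of 83 members were lower in KO and 3 higher, where 9.58% of all tested genes were called lower and 7.04% higher, so the share of members lower, 10.8%, was near the background. The members' median log2 difference was -0.06 against 0.005 over all genes. Those lower were Cycs, Cox5a, Cox5b and Ndufa4, the complex V genes Atp5g1, Atp5g3, Atp5j and Atp5o, and Ndufa9 of complex I. With equal totals 4 were lower and 3 higher, beside 8.48% and 8.79% of all tested genes. The count also rested on single libraries: it was 3 without KO DMSO replicate 1, 2 without KO DMSO replicate 2, 3 without WT DMSO replicate 1, 2 without WT DMSO replicate 2 and 4 without WT DMSO replicate 3, and 9 without KO DMSO replicate 3. Of the members higher, 1 was left without KO DMSO replicate 3 and 1 without WT DMSO replicate 2.

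Cycs had 2201, 2221 and 2308 normalized counts in KO under DMSO against 3034, 2799 and 2733 in WT under DMSO, a log2 difference of -0.35 (SE 0.065, adjusted p = 0.00404), the largest fall of any member in this comparison. Leaving out any library kept it between -0.38 and -0.30. Atp5g1 had 5702, 5461 and 6145 in KO against 7023, 7179 and 7096 in WT, a difference of -0.30 (SE 0.058, adjusted p = 0.00484). Ndufa4 had 3488, 3431 and 3839 in KO against 4004, 4348 and 4469 in WT, a difference of -0.25 (SE 0.068, adjusted p = 0.0263). The call of Ndufa4 was lost without KO DMSO replicate 1, KO DMSO replicate 2, WT DMSO replicate 2 or WT DMSO replicate 3, and that of Atp5g3 (-0.17, adjusted p = 0.0386) when any library other than KO DMSO replicate 3 was left out. In these 3 genes the KO libraries were below all WT libraries. The largest negative value of complex I was that of Ndufa5, -0.27, whose groups overlapped and which was not called (adjusted p = 0.137). Sdhc (-0.14) and Uqcrb (-0.12), the lowest of complexes II and III, were not called, nor were Ndufb11 (0.17), Sdhb (-0.02), Cox8a (0.12) and Atp5mpl (0.10), the highest of complexes I, II, IV and V.

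The members higher in KO under DMSO were Cox7a2l, Uqcrh and Cox6a2. Cox7a2l had 18541, 18344 and 19865 normalized counts in KO against 15184, 15390 and 15494 in WT, a log2 difference of 0.30 (SE 0.050, adjusted p = 0.00186). Under DMXAA its difference was 0.10 (adjusted p = 0.14), with 11131, 10340 and 10138 in KO against 9756, 9739 and 9948 in WT. Cox6a2 was higher by 1.69 (SE 0.509, adjusted p = 0.0432), with 45, 18 and 40 reads in KO against 18, 7 and 6 in WT, which overlap once normalized to 16.7 in the lowest KO library and 17 in the highest WT library. Its call was lost without KO DMSO replicate 1, KO DMSO replicate 3, WT DMSO replicate 2 or WT DMSO replicate 3, with values from 1.47 to 2.14 over all 6 leave-outs.

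Whether the response to DMXAA differed between genotypes was tested over all 12 libraries as KO minus WT under DMXAA minus KO minus WT under DMSO. Of 83 members 1 was called, lower, and 0 higher in limma, where 3.38% of all tested genes were called lower and 5.59% higher. At an unadjusted p below 0.05, 5 members were lower and 5 higher. edgeR also called 1 lower and 0 higher, and DESeq2 called 5 lower (Atp5g2, Cox7a2l, Cox8a, Sdha and Uqcrh) and 1 higher (Ndufa9). The share of all tested genes is given only for the limma calls. The counts at an unadjusted p, with edgeR and with DESeq2 are therefore not set against a background. For Cycs the difference of responses was 0.10 (SE 0.075, adjusted p = 0.478), for Sdha -0.20 (SE 0.060, adjusted p = 0.0503) and for Cox8a -0.21 (SE 0.063, adjusted p = 0.0588), and the largest in complex I was 0.32 (SE 0.133, adjusted p = 0.174) for Ndufs8. The lowest in complex I was -0.19 for Ndufb11, and the highest in complexes II and III were 0.10 for Sdhd and 0.23 for Uqcrb (adjusted p = 0.114), none of them called. In complex IV the common subunits ran from -0.21 for Cox8a to 0.01 for Cox6b1, and in complex V from -0.19 for Atp5g2 to 0.22 for Atp5g1.

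The member called was Uqcrh, the acidic hinge protein of complex III at the side where cytochrome c docks (GRCm38 chromosome 4, 116066965 to 116075071). It had 7286, 7507 and 7120 normalized counts in KO under DMXAA against 8630, 8807 and 9509 in KO under DMSO, a log2 change of -0.30 (SE 0.050, adjusted p = 4.13e-04). Uqcrh in WT had 8071, 8339 and 7882 under DMXAA against 7652, 7217 and 7748 under DMSO, a change of 0.10 (SE 0.050, adjusted p = 0.0954) that was not called. With equal totals it fell in both genotypes, at -0.69 in KO and -0.21 in WT. KO was below WT under DMXAA (-0.19, adjusted p = 0.0096) and above WT under DMSO (0.21, adjusted p = 0.0267), a call that was lost without KO DMSO replicate 2, KO DMSO replicate 3 or WT DMSO replicate 2 (0.22, 0.17 and 0.18). The difference of the responses was -0.40 (SE 0.068, adjusted p = 0.00168), between -0.43 and -0.36 when any library was left out and called each time.

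**Figure D5:**
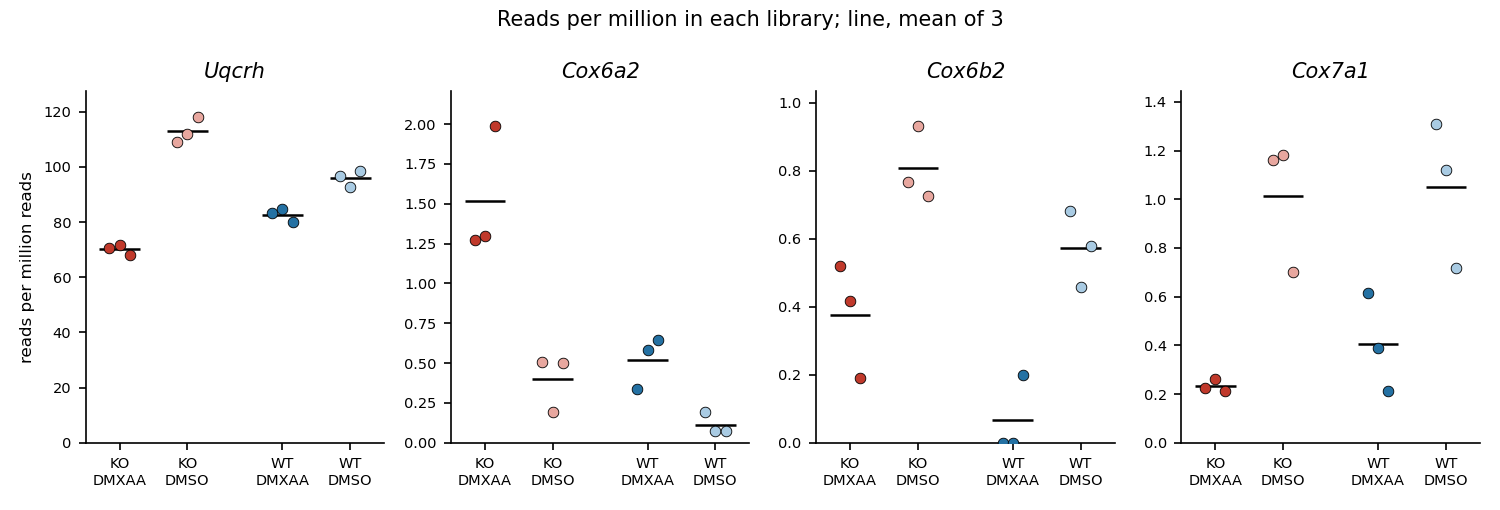
RPM of Uqcrh and of the low isoforms Cox6a2, Cox6b2 and Cox7a1 in each library, for KO and WT under DMXAA and DMSO; points are libraries and the line is the mean of 3. On this scale, which corresponds to equal totals, Uqcrh is lower under DMXAA in both genotypes and the step is larger in KO, Cox6a2 is higher under DMXAA, and 2 WT libraries under DMXAA hold no read of Cox6b2.

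Other mitochondrial genes were described from lists chosen by function. Their counts under DMXAA stand beside 33.7% of all tested genes higher and 32.9% lower in KO, and 31.7% and 31.1% in WT, or with equal totals 15.7% and 61.6% in KO and 16.1% and 55.6% in WT. The mitochondrial ribosome, which makes the mitochondrially encoded subunits, had 47 of 78 members higher and 6 lower in KO and 42 higher and 3 lower in WT, with medians of 0.24 and 0.21. With equal totals it had 17 higher and 35 lower in KO and 14 higher and 26 lower in WT. Among 51 assembly factors 25 were higher and 6 lower in KO and 26 higher and 6 lower in WT, but 9 higher and 22 lower and 11 higher and 17 lower with equal totals. Coa5, an assembly factor of complex IV, rose by 1.58 (adjusted p = 3.58e-09) in KO and 1.73 (adjusted p = 1.94e-08) in WT. Cox18, which inserts a complex IV subunit into the membrane, rose by 1.34 in KO, and the complex I factor Foxred1 by 1.07 in KO and 1.04 in WT.

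Of 12 tested regulators of mitochondrial genes 6 were lower and 2 higher in KO and 7 lower and 3 higher in WT, with 10 and 9 lower when totals were equal. Myc had 44, 48 and 48 reads in KO under DMXAA against 808, 1080 and 840 under DMSO. Myc in WT had 60, 52 and 56 under DMXAA against 1902, 1818 and 992 under DMSO. Its log2 change was -4.00 in KO and -4.41 in WT. Ppargc1b, a coactivator of the nuclear receptors that drive respiratory genes, was lower in KO than in WT under DMXAA (-0.86, adjusted p = 0.00214), and its response to DMXAA differed between genotypes (-0.85, SE 0.228, adjusted p = 0.0301). The 25 genes of mitochondrial DNA upkeep and RNA processing were mixed, with 7 higher and 6 lower in KO and 6 higher and 5 lower in WT (3 and 16, and 2 and 16, with equal totals). Pnpt1, a mitochondrial RNA-degrading enzyme known as an interferon-induced gene, rose by 1.63 in KO and 1.40 in WT.

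Of 23 genes of the citric acid cycle and pyruvate dehydrogenase 8 were higher and 8 lower in KO and 8 higher and 10 lower in WT, and with equal totals 19 and 15 were lower. Idh2, the NADP-dependent isocitrate dehydrogenase, fell, with a log2 change of -1.41 in KO and -1.21 in WT, and Pdk1, a kinase that switches pyruvate dehydrogenase off, fell at -0.77 and -1.11. Among 19 genes of other electron inputs and coenzyme Q synthesis Nnt, the NADPH-making transhydrogenase, fell, with a log2 change of -1.52 in KO and -1.23 in WT, and Coq8a fell, with a log2 change of -1.71 in KO, with a response that was lower than in WT (interaction, adjusted p = 0.00141) and a level under DMXAA lower in KO than in WT, at -0.97. In that list 5 were higher and 5 lower in KO and 6 higher and 3 lower in WT (3 and 15, and 3 and 10, with equal totals). Among those higher, Coq2 rose by log2 1.07 in KO and 0.86 in WT. Of 8 tested genes of ATP export and coupling 3 were higher and 4 lower in KO and 3 higher and 5 lower in WT. With equal totals 1 was higher and 7 lower in KO, and 1 higher and 5 lower in WT. The ADP/ATP carrier Slc25a4 fell, with a log2 change of -1.51 in KO and -1.25 in WT. The pore gene Vdac3 rose by 0.86 in KO and 0.59 in WT. Of 20 genes of cristae and import 6 were higher and 5 lower in KO and 8 higher and 4 lower in WT (3 and 14, and 2 and 12, with equal totals), with Apool of the cristae junction complex highest at 1.25 and 1.22.

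Between genotypes 2 of the 78 mitochondrial ribosome genes were higher in KO under DMXAA and 2 lower, and 1 of the 51 assembly factors was higher and 5 lower, beside 10.7% of all tested genes higher and 10.8% lower. Under DMSO 5 of the 78 were lower, and 1 of the 51 was higher and 2 lower, beside 7.04% higher and 9.58% lower. Ssbp1, the mitochondrial single-strand DNA-binding protein, was lower in KO under DMXAA at -0.31 (adjusted p = 0.00708), and the carrier Slc25a5 at -0.27 (adjusted p = 0.0019).

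The authors' deposited table calls 49 members higher and 10 lower for DMXAA in KO, 43 and 7 for DMXAA in WT, 4 and 17 for KO over WT under DMXAA, and 3 and 10 for KO over WT under DMSO, at an adjusted p below 0.05. Of the members called here, 59 of 59, 50 of 51, 17 of 18 and 12 of 12 have the same call in the authors' deposited table.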

How the data were processed

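Per the submitters' processing notes, reads were aligned to mm10 with HISAT2 and counted with featureCounts; versions, strand setting and annotation are not given in the sources used here, and per the labels the libraries were strand-specific mRNA libraries with a single batch label. The deposited values are normalized counts, a signal scaled by the authors within each of 4 tables of 6 libraries. The authors' deposited comparison tables give log2 fold changes, p-values and a score (not used). Read counts recovered from the steps between low values were whole within 0.01 for 100.000% of values, and identical in the tables that share a library. Gene positions are from GENCODE vM21, where 80 members have a single position.

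Each comparison was fitted within the table holding both groups with limma 3.58.1 (trend; log2 of the value plus 1; mean of at least 10; two-sided); the interaction used the DMXAA and DMSO tables. edgeR 4.0.16 and DESeq2 1.42.0 on recovered reads, other scalings, a pseudocount of 5, no filter, a replicate block and leaving out each library were alternatives. Fits were run on simulated data in which few genes changed, as many up as down. Many more genes were called under DMXAA in these data, so the simulation does not test the scaling. The members and lists were chosen with earlier results of these data known. In each comparison the highest and lowest member of each complex, members called in the interaction, paralogous isoforms and cytochrome c are named. Of the genes with the smallest p in other lists only some are named, chosen with their values known. Further members were named after their values were seen.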

Additional observations from a re-analysis of the deposited data

Results flagged for a closer look

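The response of Uqcrh to DMXAA differed between genotypes by log2 -0.40 (SE 0.068, adjusted p = 0.00168 in limma over 12 libraries), with a change of -0.30 in KO and 0.10 in WT. All 3 KO libraries under DMXAA were below the KO libraries under DMSO, and all 3 WT libraries under DMXAA were above the WT libraries under DMSO. With equal library totals the WT direction turns: the WT libraries were at 80.1 to 84.7 RPM under DMXAA and 92.6 to 98.5 under DMSO, and the KO libraries at 68.1 to 71.8 under DMXAA and 109 to 118 under DMSO, so Uqcrh was lower under DMXAA in both, and the difference of the responses was -0.47. Groups of 3 libraries were not tested for single outlying libraries.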

How the results depend on the processing

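The counts of members called under DMXAA depend on the scaling. With the same upper quartile they were 25 higher and 17 lower in KO and 26 higher and 18 lower in WT, and with the same total 10 higher and 50 lower in KO and 10 higher and 36 lower in WT, because these settings subtract a common step from every gene; of all tested genes 43.1% in KO and 40.2% in WT were lower with the same upper quartile, and 61.6% and 55.6% with the same total. Leaving out a library gave 38 to 47 higher and 10 to 13 lower in KO, and 35 to 46 higher and 6 to 10 lower in WT. With the same total the members' median turned from 0.17 to -0.22 in KO and from 0.20 to -0.12 in WT, so many members changed sign. Of the genes named by the rule given above, those that changed sign and were called before or after included in KO Atp5g1 (-0.27), Atp5g3 (-0.23), Cox6a1 (-0.16), Cox6b1 (-0.12), Cox7a2 (-0.12) and Cox8a (-0.11). In WT they included Atp5g3 (-0.06), Cox6a1 (-0.03), Cox6b1 (-0.06), Sdha (-0.22) and Uqcrh (-0.21). Members outside that rule also turned, such as Atp5b in KO (0.25 to -0.14). For KO over WT under DMXAA the same total gave 23 lower, and leaving out a library gave 2 to 4 higher and 10 to 16 lower. For KO over WT under DMSO the same total gave 4 lower, and leaving out a library gave 1 to 3 higher and 2 to 9 lower. For the interaction, 4 were lower with the same upper quartile, 5 with the same total and 5 with DESeq2, which also called 1 higher. Leaving out a library gave 0 to 1 higher and 1 to 3 lower. The share of all tested genes under these settings is not given here, so these interaction counts are not set against a background. Whether replicate numbers in the sample titles pair the libraries is not known. Same-numbered deviations correlated at -0.098 to 0.122, which in groups of 3 cannot settle it. In the WT response each library correlated best with its own number, a hint from the data and not from the design. The library names number the DMSO libraries 2 to 4 and the DMXAA libraries 1 to 3; pairs that share that number correlated at -0.07 to 0.024, a check chosen after seeing the data. With the title's replicate number as a block 5 members were lower in KO under DMSO, and the other counts stayed within 1.5 times. The cause of these shifts other than the scaling was not tested. Over all settings and the genes named by that rule, 1618 values kept their direction and call, 43 lost the call, 42 gained it and 11 changed sign. This tally leaves out the other members and mixes the scalings with leave-outs and other settings. It does not measure how far the calls depend on the scaling, for which the counts above stand. Depth limits what can be said of Cox6b2 and Cox4i2, which had libraries at or under a floor of 3 reads.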
